A study of Mus musculus with 4 samples.

Results

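The genes described here are 45 members of the Toll-like receptor and NF-kB pathway, taken as every array probe whose RefSeq accession maps to one of these symbols. All 45 were found, on 76 probes, among 22911 genes that could be named in this way. Toll-like receptors recognise microbial products and signal through the adaptors MyD88 and TRIF, the IRAK kinases and the ubiquitin ligase TRAF6 to the TAK1 and IKK kinase complexes. IKK phosphorylates the IkB proteins, which hold NF-kB dimers in the cytoplasm, and the released dimers bind kB sites at genes for chemokines, adhesion molecules, survival factors and their own inhibitors. In ovarian cancer cells the pathway is known for driving the secretion of chemokines and cytokines that act on cells of the peritoneal cavity.

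RNA was compared between the parental mouse ovarian cancer line ID8G and its derivative GO2, to find genes associated with spread in the peritoneal cavity. ID8G cells are ID8 cells that carry a GFP retrovirus and were sorted for GFP. GO2 cells were obtained from them by 2 rounds of growth in the peritoneal cavity of female C57BL/6 J mice, each followed by sorting of CD45-negative, GFP-positive cells from omental tumors and by culture. Both lines carry GFP. The methods give DMEM with 4% FBS, insulin, transferrin and sodium selenite for ID8 cells and name no separate medium for GO2. No Toll-like receptor ligand is named in the labels. GO2 is 1 selected population, and the labels do not say whether the 2 arrays of a line came from separate cultures, so that the p-values below measure only the spread between these arrays.

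Each line was measured on 2 one-color Agilent arrays. The scanner software found 27507 to 28876 probes well above background per array, no spot was saturated, and the arrays of a line correlated at r = 0.997 for either line. Levels are log2 intensities after subtraction of each array's 75th percentile, so that a level of 0 is that percentile, and each difference is taken between arrays for the same probe. Signals of different probes also depend on how well each probe hybridizes, so that they served to choose a probe for a gene and to sum the marker lists, and they do not rank genes by expression. A gene was called when a probe had a limma Benjamini-Hochberg adjusted p below 0.05 and a difference of at least 2-fold. Of 8 ovarian surface epithelium markers, 7 had a probe well above background on both arrays of either line. Of the 7 tested, 4 were lower in GO2 at an adjusted p below 0.05 and 1 was higher, where 20.0% and 21.0% of all tested genes were. Krt19 was called lower (log2 difference -1.65), and Krt18, Msln and Krt8 were lower by under 2-fold (-0.81, -0.82 and -0.55, limma adjusted p = 0.00162, 0.00176 and 0.00438). Upk3b was called higher (1.08), and Wt1 and Lrrn4 did not pass the test (-0.10 and -0.04, limma adjusted p = 0.478 and 0.895). The summed signal of the list, most of it from keratin probes, was 655 to 662 times the 75th percentile on the ID8G arrays and 373 to 377 times on the GO2 arrays. Of 11 macrophage markers, 7 (Ptprc, Adgre1, Lyz2, Aif1, Tyrobp, Mrc1 and Cd163) had no probe well above background on any array. Of the other 4, Fcgr3 was at least 3.40-fold lower in GO2 (limma adjusted p = 0.000788), Cd68, Csf1r and Itgam did not pass the test (0.19, 0.22 and -0.13), and the summed signal, most of it from an Itgam probe, was 21.8 to 24.5 in ID8G and 21.6 to 21.8 in GO2. Of 6 fibroblast markers, Thy1, Lum and Fap had no probe well above background on any array. Pdgfra was 13.0-fold higher in GO2 (limma adjusted p = 0.000208) and Pdgfrb at least 2.42-fold higher (limma adjusted p = 0.000788). Dcn was lower by under 2-fold (-0.63, limma adjusted p = 0.00309) and carried the summed signal of 64.8 to 67.5 in ID8G and 43.9 to 44.3 in GO2. Of 5 adipocyte markers, Fabp4 was at least 6.34-fold lower in GO2 (limma adjusted p = 0.000851), and Lep did not pass the test (-0.04, limma adjusted p = 0.620). Adipoq and Plin1 were not well above background on any array, and Cidec was on 1 GO2 array only. The summed adipocyte signal was 0.987 to 1.07 in ID8G and 0.496 to 0.628 in GO2. Of 7 lymphocyte and 5 endothelial markers, 5 and 4 had no probe well above background on any array, and no gene was called. The part of these markers' shifts in the results below was not tested.

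Among the 45 genes, 39 had a probe that was well above background on both ID8G arrays or both GO2 arrays and were tested. Higher in GO2 were 2 of them, the cell surface receptors Tlr2 and Tlr6 (5.13%, where 6.44% of all 13215 tested genes were called higher). Lower in GO2 were 3, the endosomal receptor Tlr7, the lipopolysaccharide binding protein Lbp and the NF-kB inhibitor Nfkbie (7.69%, where 4.33% of all tested genes were called lower). Of the 62 member probes tested, 2 were called higher and 4 lower, where 4.50% and 3.34% of all 28370 tested probes were. The median log2 difference over the 39 genes was -0.06, and it was -0.0004 over all tested genes. When the arrays were scaled to their spike-ins, the median of all probes moved from -0.02 to -0.23 and that of the members to -0.27, with 33 members below 0 in place of 23. Counting differences of any size at an adjusted p below 0.05 in the brightest tested probe, 4 members (10.3%) were higher and 12 (30.8%) were lower, where 21.0% and 20.0% of all tested genes were. The plot of levels by array shows that most adaptors, kinases and NF-kB subunits lay at nearly the same level on all 4 arrays.

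**Figure D1:**
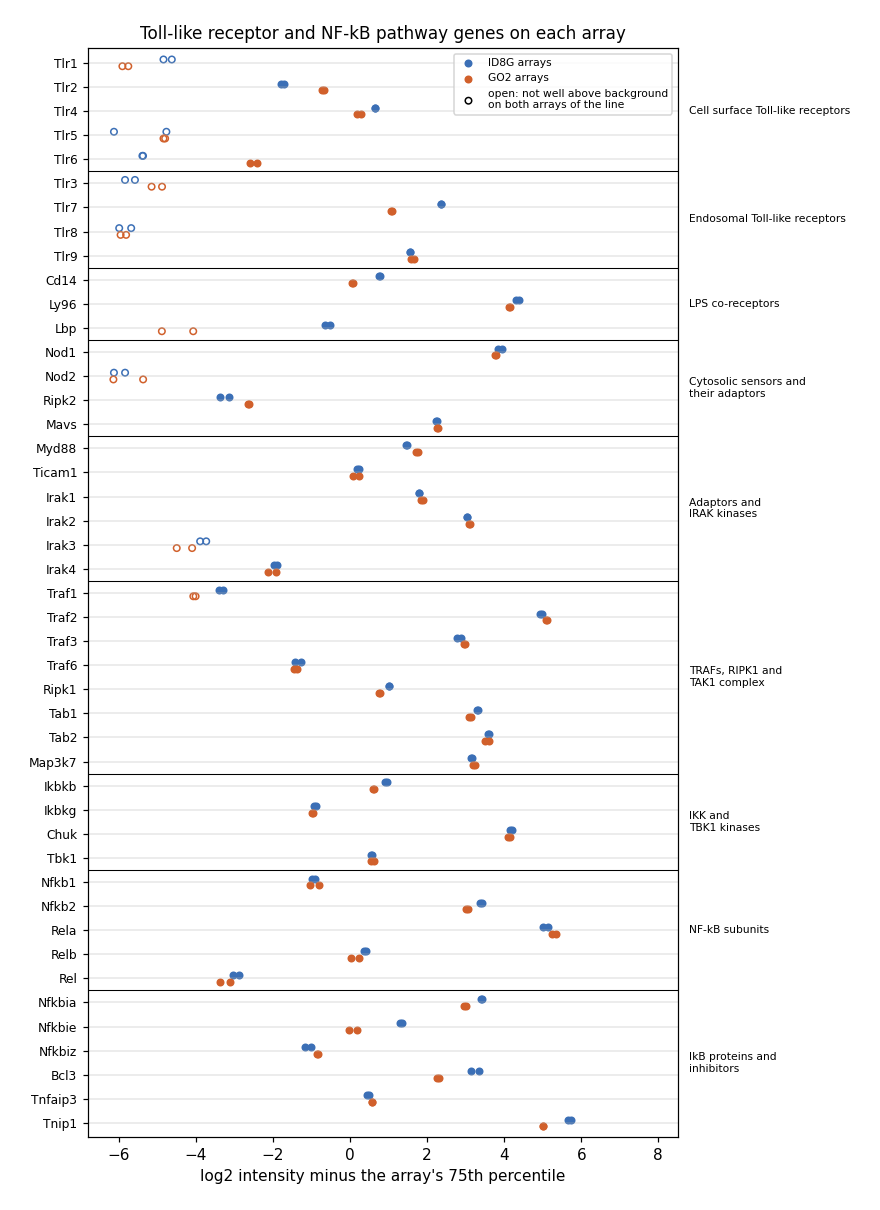
Level of each of the 45 genes on the 2 ID8G arrays (blue) and the 2 GO2 arrays (orange), on a log2 scale where 0 is the array's 75th percentile, in groups by role; each gene is shown by its brightest probe among those tested, or among all its probes where none was tested, and open points mark a line not well above background on both arrays. The arrays of the 2 lines lie well apart for Tlr6 and Lbp, and by about 1 unit for Tlr2, Tlr7, Nfkbie and Bcl3.

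Of the 5 cell surface receptors, 3 were tested. Tlr2 and Tlr6 were called higher in GO2, where 6.44% of all tested genes were, and Tlr4 was lower by under 2-fold. Tlr2, which senses bacterial lipopeptides as a dimer with Tlr1 or Tlr6, had levels of -1.72 and -1.79 on the ID8G arrays and of -0.74 and -0.67 on the GO2 arrays. The lines did not overlap, and Tlr2 was 2.07-fold higher in GO2 (log2 difference 1.05 ± 0.06 SE, 95% confidence interval 0.89 to 1.21, limma adjusted p = 0.0011). This difference lies close to the 2-fold threshold, and it was 0.84 when the arrays were scaled to their spike-ins and 0.77 with normexp background correction, under which Tlr2 was not called. Tlr6, the partner of Tlr2 for diacylated lipopeptides, had levels of -5.37 and -5.39 in ID8G and of -2.42 and -2.59 in GO2.

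Neither ID8G array was well above background for Tlr6, and both GO2 arrays were. The fold is therefore given as a bound, in which each ID8G array is set to its lowest signal well above background, and Tlr6 was at least 2.25-fold higher in GO2 (limma adjusted p = 0.000269). For this and every other bound, the p-value tests the measured difference, which includes signal not well above background, and not the bound. With normexp correction its log2 difference was 0.99, under the threshold of size. Tlr1, the other partner of Tlr2, lies next to Tlr6 with 0 protein-coding genes between them, and neither of its probes was well above background on any array. Tlr5, the flagellin receptor, was likewise not well above background on any array.

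Tlr4, the receptor for lipopolysaccharide, had levels of 0.64 and 0.65 in ID8G and of 0.19 and 0.28 in GO2. Every GO2 array was below both ID8G arrays, by 0.41 on average (limma adjusted p = 0.0117), which is under 2-fold. Tlr4 acts with 3 helper proteins. Lbp, the secreted protein that passes lipopolysaccharide to Cd14, had levels of -0.66 and -0.52 in ID8G and of -4.88 and -4.07 in GO2. Lbp was not well above background on either GO2 array and was at least 9.40-fold lower there (limma adjusted p = 0.00229). Cd14, which hands the ligand on to Tlr4, was at 0.77 and 0.74 in ID8G and at 0.06 and 0.07 in GO2, lower by a log2 difference of -0.69 (limma adjusted p = 0.0021), and its second probe gave -0.67 (limma adjusted p = 0.00298). Ly96, the MD-2 subunit that binds lipid A beside Tlr4, had probes that disagreed. Its brightest probe was at 4.30 and 4.39 in ID8G and at 4.12 and 4.14 in GO2 (log2 difference -0.21, limma adjusted p = 0.0555), and the other probe had a log2 difference of 0.39 (limma adjusted p = 0.0327).

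Of the 4 endosomal receptors of nucleic acids, 2 were tested. Tlr7 was called lower in GO2, where 4.33% of all tested genes were. Tlr7, a sensor of single-stranded RNA, was at 2.35 and 2.36 in ID8G and at 1.09 and 1.07 in GO2 with its brightest probe, a 2.43-fold lower level (log2 difference -1.28 ± 0.05 SE, limma adjusted p = 0.000501). A second probe went from 1.60 and 1.53 in ID8G to -0.23 and -0.22 in GO2, 3.46-fold lower (limma adjusted p = 0.000319). Both probes separated the lines by far more than the arrays of a line differed, and the remaining Tlr7 probe was not well above background on any array. Tlr8 lies next to Tlr7 with 0 protein-coding genes between them and was not well above background on any array, nor was Tlr3, the sensor of double-stranded RNA. Tlr9, the sensor of CpG DNA, had levels of 1.55 and 1.54 in ID8G and of 1.59 and 1.66 in GO2, and its log2 difference of 0.08 (95% confidence interval -0.07 to 0.23) did not pass the test (limma adjusted p = 0.328).

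**Figure D2:**
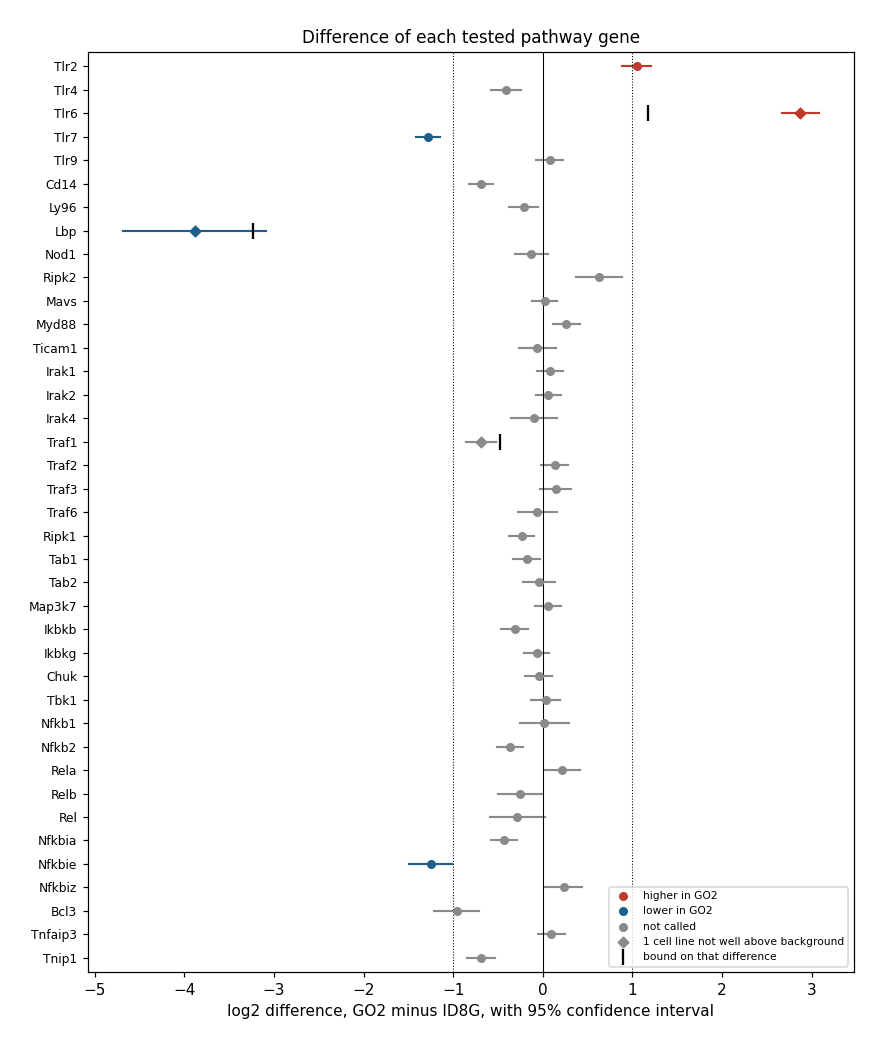
Log2 difference between GO2 and ID8G, with its 95% confidence interval, for the brightest tested probe of each of the 39 tested genes; red and blue mark genes called higher and lower, diamonds mark genes where 1 line was not well above background, vertical ticks give the bound for those genes, and dotted lines mark 2-fold. The genes past the dotted lines are Tlr2 and Tlr6 on the higher side and Tlr7, Lbp and Nfkbie on the lower side. The confidence interval of Tlr2 crosses the line at 1, and that of Bcl3 crosses the line at -1.

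No adaptor, IRAK, TRAF or kinase of the IKK and TAK1 complexes was called. Myd88, the adaptor of all Toll-like receptors here but Tlr3, was at 1.49 and 1.45 in ID8G and at 1.70 and 1.76 in GO2, higher by a log2 difference of 0.26 (limma adjusted p = 0.0296). Ticam1, which encodes TRIF, the adaptor of Tlr3 and Tlr4, differed by -0.06 (limma adjusted p = 0.548). Of the IRAK kinases, Irak1 and Irak4 differed by 0.08 and -0.09 and did not pass the test (limma adjusted p = 0.308 and 0.478), and Irak3, an inhibitory member, was not well above background on any array. Irak2 had probes that disagreed. Its brightest probe had levels between 3.04 and 3.12 on all arrays (log2 difference 0.06, limma adjusted p = 0.401), and the other was at -1.70 and -1.68 in ID8G and at -2.46 and -2.48 in GO2 (log2 difference -0.78, limma adjusted p = 0.00157).

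The cytosolic branch gave 1 small difference. Ripk2, the kinase that carries signals from Nod1 and Nod2, was at -3.15 and -3.38 in ID8G and at -2.63 and -2.65 in GO2 (log2 difference 0.62, limma adjusted p = 0.013). Nod1, a sensor of bacterial peptidoglycan, differed by -0.13 (limma adjusted p = 0.205), and Nod2 was not well above background on any array. Mavs, the adaptor of the RNA sensors RIG-I and MDA5, had levels between 2.23 and 2.27 on all 4 arrays (log2 difference 0.02, limma adjusted p = 0.771).

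Of the 8 genes for TRAFs, RIPK1 and the TAK1 complex, 2 were lower at an adjusted p below 0.05, a share near the 20.0% of all tested genes, and both by under 2-fold. Traf1, a TRAF that is itself an NF-kB target, was at -3.31 and -3.40 in ID8G and at -4.07 and -4.01 in GO2, where neither array was well above background, so that it was at least 1.39-fold lower (limma adjusted p = 0.00364). Ripk1, a kinase that scaffolds IKK activation, differed by -0.24 with its brightest probe (limma adjusted p = 0.0299) and by 0.13 with the other (limma adjusted p = 0.213). Traf6, the ligase on which the Myd88 branch depends, differed by -0.06 (limma adjusted p = 0.601, 95% confidence interval -0.28 to 0.16). Map3k7, which encodes TAK1, differed by 0.06 with its brightest probe (limma adjusted p = 0.413), and 2 dimmer probes gave 0.21 (limma adjusted p = 0.0813) and 0.26 (limma adjusted p = 0.0239). Tab1 and Tab2, the binding partners of TAK1, differed by -0.18 and -0.04.

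Ikbkb, the IKK subunit that phosphorylates IkB proteins in the canonical pathway, was at 0.90 and 0.96 in ID8G and at 0.60 and 0.63 in GO2 (log2 difference -0.31, limma adjusted p = 0.0184). Its dimmer probe gave -0.24 and did not pass the test (limma adjusted p = 0.320). Chuk, the other catalytic subunit, differed by -0.05 (limma adjusted p = 0.546), and Tbk1, which phosphorylates Irf3, by 0.03 (limma adjusted p = 0.709). Ikbkg, the regulatory subunit NEMO, differed by -0.07 with its brightest probe (limma adjusted p = 0.343), and a dimmer probe gave -0.56 (limma adjusted p = 0.0295). Over all 23 members whose brightest probe did not pass the adjusted p, the log2 differences ran from -0.29 to 0.23.

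The 5 NF-kB subunits differed by under 2-fold. Rela, the p65 subunit of the canonical dimer, was at 5.02 and 5.15 in ID8G and at 5.25 and 5.34 in GO2 (log2 difference 0.21, limma adjusted p = 0.0918). Nfkb1, which encodes its partner p50, differed by 0.02 with a 95% confidence interval from -0.25 to 0.29 (limma adjusted p = 0.891). Nfkb2, which encodes p100, the precursor of the p52 subunit of the noncanonical pathway, was at 3.38 and 3.41 in ID8G and at 3.01 and 3.06 in GO2. Its log2 difference was -0.36 (limma adjusted p = 0.0122), and a second probe gave -0.32 (limma adjusted p = 0.0158). Relb, the partner of p52, and Rel differed by -0.26 and -0.29 and did not pass the test (limma adjusted p = 0.0927 and 0.121).

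Among the 6 IkB proteins and inhibitors, 4 were lower in GO2 at an adjusted p below 0.05 (20.0% of all tested genes were), and 1 of these passed 2-fold. Nfkbie, which encodes IkB epsilon, was at 1.36 and 1.31 in ID8G and at -0.02 and 0.18 in GO2. The GO2 arrays lay below both ID8G arrays by far more than the arrays of a line differed, a 2.38-fold lower level (log2 difference -1.25 ± 0.09 SE, limma adjusted p = 0.00182). Bcl3, a nuclear IkB protein that acts on p50 and p52 dimers, was at 3.14 and 3.35 in ID8G and at 2.25 and 2.32 in GO2, with a log2 difference of -0.96 (95% confidence interval -1.21 to -0.71, limma adjusted p = 0.00428). It falls just short of the 2-fold threshold and was past it without ID8G replicate 1, at -1.07, and with spike-in scaling, at -1.17.

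Tnip1, which encodes ABIN1, a ubiquitin binding partner of A20, was at 5.65 and 5.73 in ID8G and at 5.00 on both GO2 arrays (log2 difference -0.69, limma adjusted p = 0.00294). Its dimmer probe gave -0.73 and did not pass the test (limma adjusted p = 0.159). Nfkbia, the IkB alpha gene that NF-kB itself induces, was at 3.42 and 3.39 in ID8G and at 3.00 and 2.94 in GO2 (log2 difference -0.43, limma adjusted p = 0.00784). The remaining 2 genes of the group did not pass the test. Tnfaip3, which encodes A20, a deubiquitinase that ends NF-kB signaling, differed by 0.10 (limma adjusted p = 0.227), and Nfkbiz, a nuclear IkB protein, by 0.23 (limma adjusted p = 0.0765).

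Promoter sequence was examined for the kB consensus, the published NF-kB recognition motif, because several of these genes are known to be induced by NF-kB. Both strands of the 250 bases upstream of each start were searched, and matches that overlapped were merged. Of 34 members with a promoter in the RefSeq table (GRCm38.p6), 11 held a match (32.4%), where 8.23% of all 27025 genes in the table did; among tested genes it was 10 of 28 members (35.7%) and 10.4% of all. A match is a description of these letters and not a binding site, and the arrays did not measure binding. Of the called members, Tlr6 held no match, and Tlr7 and Lbp have no promoter in the RefSeq table and were not searched. The windows below are those of Tlr2, the called receptor with a match, of Nfkbie, the called inhibitor, and of 3 inhibitor or subunit genes that were lower by under 2-fold; each is printed 5′ to 3′ on the strand of its gene with the match in capitals.
Tlr2: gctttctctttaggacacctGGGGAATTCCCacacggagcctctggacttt
Nfkbie: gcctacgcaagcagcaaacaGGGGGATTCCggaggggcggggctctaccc
Tnip1: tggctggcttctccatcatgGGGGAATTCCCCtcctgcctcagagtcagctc
Nfkbia: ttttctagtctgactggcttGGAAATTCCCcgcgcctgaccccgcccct
Nfkb2: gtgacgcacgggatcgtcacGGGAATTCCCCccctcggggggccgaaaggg

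These windows lie at chr3:83841751-83841801 on the minus strand for Tlr2, at chr17:45555574-45555623 on the plus strand for Nfkbie, at chr11:54962967-54963018 on the minus strand for Tnip1, at chr12:55492648-55492696 on the minus strand for Nfkbia and at chr19:46304678-46304728 on the plus strand for Nfkb2. The match begins 173 bases upstream of the start in Tlr2, 106 in Nfkbie, 58 in Tnip1, 29 in Nfkbia and 39 in Nfkb2. In Tlr2, Tnip1 and Nfkb2 it merges 2, 3 and 2 overlapping matches. Of the genes shown, which were chosen among those that differed, Tlr2 was higher in GO2 and the other 4 were lower. A match was also found in Irak1, Map3k7, Tnfaip3, Traf3 and Rel, whose brightest probes did not pass the test, and in the untested Tlr3.

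A list of 63 further pathway genes (receptors, chaperones, adaptors, ubiquitin enzymes, kinases, IkB partners and cytosolic sensors) held 51 tested genes, of which 5 were called higher in GO2 (9.80%) and 1 lower (1.96%), beside 6.44% and 4.33% of all tested genes. The count called higher was 1 with normexp correction, 0 with the methods' t-test, and 3 with spike-in scaling, with a floor on dim signal, with signal required on all 4 arrays, or without either GO2 replicate 1 or GO2 replicate 2. The median log2 difference of the list was 0.01. Tnip3, which encodes ABIN3, another A20 binding protein, was at 1.42 and 1.37 in ID8G and at -0.68 and -0.70 in GO2, 4.24-fold lower (limma adjusted p = 0.000261). Il1rap, the shared accessory chain of IL-1 family receptors, was at -2.63 and -2.50 in ID8G and at -1.17 and -1.24 in GO2, 2.57-fold higher (limma adjusted p = 0.000859). Il1r1, the IL-1 receptor that signals through Myd88 and pairs with Il1rap, was 2.03-fold higher in GO2 (log2 difference 1.02, limma adjusted p = 0.00355).

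Ikbke, an IKK-related kinase of the Tbk1 branch, was at -4.43 and -4.77 in ID8G, not well above background on either array, and at -3.08 and -3.26 in GO2. It was at least 1.42-fold higher in GO2 (limma adjusted p = 0.00477), so that its bound is under 2-fold, as is that of the nuclear IkB gene Nfkbid (at least 1.46-fold, limma adjusted p = 0.0354). These p-values test the measured log2 differences (1.43 and 1.33) and not the bounds. Irf7, a transcription factor of the interferon response downstream of Tlr7 and Tlr9, was 2.23-fold higher in GO2 (limma adjusted p = 0.0062), in the opposite direction to Tlr7. The 3 genes whose probes gave the highest signal in the list did not pass the test. Hsp90b1, the chaperone that folds Toll-like receptors, differed by 0.09 (limma adjusted p = 0.229), Ube2v1 by 0.18 (limma adjusted p = 0.0846) and its ubiquitin-conjugating partner Ube2n by -0.07 (limma adjusted p = 0.395).

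Of 54 genes known as NF-kB targets, 53 were on the array and 42 were tested, with 7 called higher (16.7%) and 8 called lower (19.0%) in GO2, where 6.44% and 4.33% of all tested genes were. This list, like the others here, was chosen with earlier results of these data known, so that its shares only describe the genes listed. The list was not of one direction, with a median log2 difference of -0.05. Its 9 tested chemokine genes all passed an adjusted p of 0.05, 4 higher and 5 lower (21.0% and 20.0% of all tested genes were), of which 3 in each direction were called. Cxcl1, a neutrophil attractant, was at -2.89 and -2.79 in ID8G and at 3.24 and 3.18 in GO2, 66.5-fold higher (limma adjusted p = 0.000182). Ccl2, the monocyte attractant, was at 5.10 and 5.22 in ID8G and at 3.39 and 3.48 in GO2, 3.32-fold lower (limma adjusted p = 0.000552). Ccl20, which attracts cells through CCR6, was at -1.52 and -1.23 in ID8G and at -3.87 and -4.03 in GO2, not well above background there and at least 5.45-fold lower (limma adjusted p = 0.000786).

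**Figure D3:**
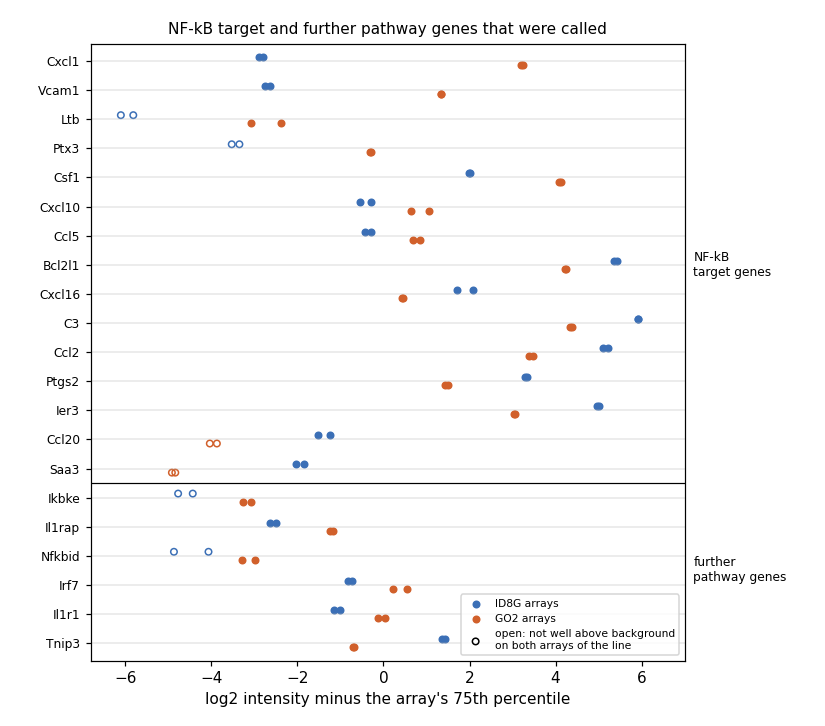
Levels on the 2 ID8G arrays (blue) and the 2 GO2 arrays (orange) of the NF-kB target genes and further pathway genes that were called, on a log2 scale where 0 is the array's 75th percentile; open points mark a line not well above background on both arrays. Called targets lie on either side, from Cxcl1, near -3 in ID8G and 3 in GO2, to Saa3, not well above background in GO2.

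Vcam1, an adhesion molecule for leukocytes, was at -2.74 and -2.63 in ID8G and at 1.34 and 1.33 in GO2, 16.2-fold higher (limma adjusted p = 0.000182). Csf1, the macrophage growth factor, was at 2.02 and 1.98 in ID8G and at 4.12 and 4.08 in GO2, 4.30-fold higher (limma adjusted p = 0.000248), and Ltb, a TNF family ligand of the noncanonical pathway, was at least 1.92-fold higher (limma adjusted p = 0.00298). Of 6 tested survival genes, 2 were called lower, where 4.33% of all tested genes were. Ier3 was at 5.00 and 4.95 in ID8G and at 3.03 and 3.05 in GO2, 3.81-fold lower (limma adjusted p = 0.000286). Bcl2l1, which encodes BCL-XL, was 2.23-fold lower with its brightest probe (limma adjusted p = 0.000758). Another Bcl2l1 probe was also called (log2 difference -1.21), and the remaining probes were lower by under 2-fold (-0.97, -0.92 and -0.81). Ptx3, a secreted pentraxin, was at -3.52 and -3.35 in ID8G, well above background on 1 of these arrays, and at -0.30 and -0.32 in GO2, 8.75-fold higher (limma adjusted p = 0.000257). The acute phase gene Saa3 was at least 3.70-fold lower (limma adjusted p = 0.000303), and complement C3 was 2.95-fold lower (limma adjusted p = 0.000421). The cytokines Il6, Il1a and Il1b were not well above background on any array, and Tapbp, a gene of antigen presentation, differed by -0.06 (limma adjusted p = 0.454).

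Of 41 target genes with a promoter in the RefSeq table, 14 held the kB consensus in the same window (34.1%), as did 7 of 52 further pathway genes (13.5%), beside 8.23% of all genes. These shares come from sequence alone, and the targets were listed as known NF-kB targets, so that the shares do not bear on the difference between the lines. Matches were found in 4 of 5 targets called higher and in 3 of 6 called lower that have a promoter there, beside 12 of 33 tested targets (36.4%) and 10.4% of all tested genes. The windows below show 1 further pathway gene, 2 targets that were higher and 2 that were lower, with the match in capitals.
Tnip3: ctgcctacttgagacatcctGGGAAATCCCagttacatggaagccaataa
Cxcl1: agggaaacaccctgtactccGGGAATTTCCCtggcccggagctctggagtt
Csf1: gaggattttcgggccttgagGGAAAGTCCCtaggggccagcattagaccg
Ccl20: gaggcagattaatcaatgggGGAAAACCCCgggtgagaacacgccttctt
Ier3: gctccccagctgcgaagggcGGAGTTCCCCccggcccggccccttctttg

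They lie at chr6:65590324-65590373 on the plus strand for Tnip3, at chr5:90891154-90891204 on the plus strand for Cxcl1, at chr3:107760594-107760643 on the minus strand for Csf1, at chr1:83116666-83116715 on the plus strand for Ccl20 and at chr17:35821601-35821650 on the plus strand for Ier3, all in GRCm38.p6. Genes with a match in this window were thus found among those higher in GO2 (Tlr2, Cxcl1 and Csf1) and among those lower (Nfkbie, Tnip3, Ccl20 and Ier3).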

How the data were processed

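The authors deposited scanner files of 4 arrays (Feature Extraction 11.5.1.1), which hold background-corrected intensity per spot on a linear scale, not normalized between arrays, and a value table of log2 values centered per probe, used as an alternative. Its unused per-sample columns number 0. Outlier spots were left out, the log2 intensities of a probe's spots were averaged, and the 75th percentile over non-control probes was then subtracted. The 28370 probes for which either line had both arrays well above background were fitted with limma 3.58.1 in R 4.3.3 with line as the only term, after the fit was tested on simulated data. Probes were named by RefSeq accession (32994 of 56605 matched; GRCm38.p6, while the arrays were designed on mm9). A gene's brightest tested probe represents it, and it is called if any tested probe is.

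In a bound, each array of the dim line takes the higher of its lowest signal well above background and its own signal. The p-value beside a bound is that of the measured difference. With 2 arrays a line, an exact two-sided permutation test cannot go below p = 0.333. The arrays share 1 slide and 1 scan, and their number limits the precision.

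The members and lists were chosen with earlier results of these data known. Every member is accounted for. From the further lists the 3 largest increases and decreases called, by measured difference, and the 3 genes of highest probe signal are named. This order counts genes near background (Ikbke, Nfkbid, Ltb) at their measured difference, which exceeds their bound. Irf7, Il1r1, Csf1, Ccl2, Ptx3, the markers and the uncalled cytokines were named after their values were seen, as were the promoters shown. The kB search was a plain match to the consensus. Figures were drawn with matplotlib 3.10.9 in python 3.11.15. Alternatives were normexp on the median pixel (offset 50), quantile normalization, median centering, spike-in scaling, other filters on dim probes, a floor, outlier spots kept, an intensity trend, the replicate number as a block, the methods' t-test, the value table, gene means, no minimum difference and each array left out.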

Additional observations from a re-analysis of the deposited data

How the results depend on the processing

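The members called (2 higher, 3 lower) kept both counts under quantile normalization, median centering, a floor, outlier spots kept, an intensity trend, the value table, gene means and the replicate block. Normexp left 0 higher, spike-in scaling 1 (Tlr6, with Bcl3 added on the lower side), and a filter for signal on all 4 arrays 1, with 2 lower, since it removes Tlr6 and Lbp. Without a filter on dim probes 2 were higher and 4 lower (Tlr1 added). The methods' t-test (Welch) left 0 in either direction after adjustment; at an unadjusted p under 0.05 it gave 2 and 2, and limma 2 and 3. Without a minimum difference 6 were higher and 14 lower. Leaving out 1 array gave 2 higher each time and 3 to 5 lower, the 5 without ID8G replicate 1 (Bcl3 and Tnip1 added). Further pathway genes called higher (5) were 1 with normexp, 3 with spike-in scaling, the 4-array filter or a floor, 0 with the methods' t-test, 13 without a minimum difference and 3 to 5 with 1 array left out (3 without GO2 replicate 1 or GO2 replicate 2); those lower (1) were 0 with the t-test and 10 without a minimum. Targets (7 and 8) were 0 and 0 with the t-test, and 15 and 13 without a minimum. Over all probes (1277 and 947) normexp gave 818 and 517, the 4-array filter 666 and 606, the t-test 0 and 3, no minimum 4834 and 5348, spike-in scaling 1434 lower, and arrays left out 1230 to 1311 and 934 to 1011. Replicate numbers did not pair the arrays (correlation of deviations 0.0273). Members whose uncalled difference changed sign were, with spike-in scaling, Tlr9 (-0.13), Mavs (-0.19), Irak1 (-0.13), Irak2 (-0.15), Traf2 (-0.076), Traf3 (-0.065), Map3k7 (-0.15), Tbk1 (-0.18), Nfkb1 (-0.19) and Tnfaip3 (-0.11), with gene means Ly96 (0.085), Irak1 (-0.0065), Irak2 (-0.36) and Chuk (0.016), with median centering Mavs (-0.0094) and Nfkb1 (-0.011), and with normexp Irak4 (0.026) and Tbk1 (-0.040). With each array left out, differences spanned 0 in Ticam1 (-0.14 to 0.014), Irak4 (-0.20 to 0.014), Traf6 (-0.14 to 0.026), Tab2 (-0.095 to 0.014), Tbk1 (-0.013 to 0.075) and Nfkb1 (-0.094 to 0.13). The causes of these changes were not tested. The slide as a block was not run because there is 1 slide. Signal over background limits Tlr6, Lbp, Traf1 and the 6 untested members, for which no change can be read from these arrays.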
